A study of Mus musculus with 10 samples.

Results

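The glucagon gene Gcg and 4 genes for enzymes of peptide hormone maturation (Pcsk2, Cpe, Pam and Furin) were followed in αTC1 cells exposed to enzalutamide. These 5 genes, of 33212 in the deposited count table, were taken by symbol, and each symbol matched 1 entry. αTC1 is a mouse pancreatic α cell line derived from tumours of transgenic mice in which the promoter of rat preproglucagon drives a viral oncogene, so the cells were immortalised through a regulatory region of the rat counterpart of Gcg. Polyadenylated RNA was sequenced from 5 libraries of cells given enzalutamide (10 μM, 48 h), an antagonist of the androgen receptor, and 5 libraries of cells given DMSO, its solvent, for 48 h. Both groups grew in DMEM with low glucose (1 g/L) and 10% serum, and the series places the experiment in work on β cell formation from α cells. The labels call the libraries biological replicates without saying whether they were separate cultures, so each p-value speaks only of the spread seen among these libraries, which may be technical.

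Glucagon is made as part of a larger precursor. The signal peptide is removed on entry into the endoplasmic reticulum, and prohormone convertases then cut at basic residues. Carboxypeptidase E trims these residues from the new ends. In those peptides that then end in glycine, peptidylglycine α-amidating monooxygenase turns this glycine into an amide. In α cells the convertase encoded by Pcsk2 releases glucagon, whereas in gut L cells Pcsk1 releases glucagon-like peptides from the same precursor. Furin, a convertase of the Golgi and cell surface present in most cells, cuts many proproteins but is not the main enzyme of proglucagon.

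The coding sequence of Gcg (ENSMUSG00000000394, minus strand of chromosome 2, 62474530 to 62483650 of GRCm38/mm10) is shown at the places where these enzymes act. It held 180 codons and 7 adjacent pairs of basic codons, of which 3 were Lys-Arg, 3 Arg-Arg and 1 Lys-Lys. The glucagon stretch of 99 coding bases lay in exon 3 of 6 (chr2:62478560-62478658), with 29 codons of hormone between Lys-Arg pairs that begin at codons 51 and 82, in capitals below. A further Arg-Arg pair, at codon 69, lay inside the hormone itself. The codon just before the pair at codon 82 was ACC, so the glucagon stretch held no terminal Gly codon for amidation. The GLP-1 stretch of 102 bases lay in exon 4 (chr2:62476826-62476927), and its capitals mark the Arg codon before the peptide and, at its end, the Gly codon that serves amidation followed by the Arg-Arg pair that a carboxypeptidase must first remove. Both are from the GENCODE M21 transcript sequence, 5′ to 3′.
glucagon: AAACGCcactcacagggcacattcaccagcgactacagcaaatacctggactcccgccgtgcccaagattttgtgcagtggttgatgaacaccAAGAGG
GLP-1: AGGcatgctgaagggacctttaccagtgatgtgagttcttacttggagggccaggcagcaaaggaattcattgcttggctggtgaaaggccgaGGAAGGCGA

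The hormone gene and the amidating enzyme gene fell, Furin rose, and Pcsk2 and Cpe did not pass the test. Gcg was 1.80-fold lower (it fell by 44.6%; 95% interval of the fold 0.533 to 0.577) and Pam was 1.46-fold lower in enzalutamide than in DMSO. Furin was 1.30-fold higher. In RNA from whole cultures, fewer cells expressing a gene and less of its RNA per cell cannot be told apart. In a quasi-likelihood test in edgeR, adjusted by Benjamini-Hochberg over 14156 genes, 3 of the 5 genes had an adjusted p under 0.05, where 37.8% of all tested genes did (18.8% lower and 19% higher in enzalutamide). The same 3 genes had no overlap between the groups' values, as had 26.8% of all tested genes (13.7% with the enzalutamide values below and 13.1% with them above). Differences below are log2 fold changes of enzalutamide against DMSO. The split of all calls depends on the scaling, since 50.3% of calls were higher with trimmed mean scaling and 60.7% with total counts alone.

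Library totals were between 59557697 and 68603842 counts, and levels are given as CPM, counts scaled to a common library size. With counts taken as direct read counts, which the labels do not state, a count of 0 allows up to 3 counts, or 0.0437 to 0.0504 CPM, by counting error alone. The α cell markers Gcg, Irx1, Irx2, Ttr and Slc38a5 were measured in every library. Ttr (-1.22) and Slc38a5 (-0.99) fell by more than Gcg, while Irx1 (0.02) and Irx2 (0.01) did not pass. Of 7 α cell markers listed, 5 fell and 0 rose at an adjusted p under 0.05, where 18.8% of all tested genes fell. Of markers of other cells, Ins1 and Pdx1 of β cells, Sst of δ cells and Ppy of PP cells had 0 counts in every library. Low counts were present in every library for Ins2 (18 to 53) and Mafa (28 to 139) of β cells and Ghrl (50 to 84) of ε cells. None of these passed (edgeR adjusted p = 0.164, 0.938 and 0.794). Iapp and Slc2a2 of β cells reached at most 5 and 10 counts, and Hhex of δ cells at most 8 counts. The third δ cell marker, Rbp4, which encodes a retinol carrier, was abundant, at 1173 to 1280 CPM in DMSO and 1225 to 1463 CPM in enzalutamide, and rose by 0.12 on the log2 scale (edgeR adjusted p = 0.0223) although the groups overlapped. Its part in the results was not tested. The summed β cell markers were at 44.3 to 49 CPM in DMSO and 45.8 to 49.5 CPM in enzalutamide, nearly all of it Nkx6-1. The summed markers of exocrine pancreas reached at most 0.116 CPM, and those of mesenchyme, endothelium and blood were at 1.07 to 1.86 CPM in DMSO and 0.675 to 1.97 CPM in enzalutamide. Of the 2 tested markers in the latter set, Col1a2 fell (-1.44, edgeR adjusted p = 0.0048) and Pecam1 did not pass (edgeR adjusted p = 0.823). Col1a2 was at 0.835 to 1.53 CPM in DMSO and 0.135 to 0.728 CPM in enzalutamide, with only 9 to 98 counts in a library. Transcripts of the mitochondrial genome took 6.18 to 6.64% of counts in DMSO and 7.21 to 7.88% in enzalutamide, and the part of this shift in the results for single genes was not tested.

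Gcg was the second most counted gene in every DMSO library, below only mt-Co1, a mitochondrially encoded subunit of cytochrome c oxidase. In DMSO libraries 1 to 5 it was at 15598, 14646, 15746, 15309 and 15048 CPM. In enzalutamide libraries 1 to 5 it was at 8455, 8914, 8529, 8586 and 7844 CPM. All 5 treated libraries lay far below all 5 controls, and the spread within each group was small (coefficient of variation 2.88% in DMSO and 4.60% in enzalutamide). On the log2 scale the change was -0.85 with an SE of 0.0289 (edgeR adjusted p = 5.74e-13). In the treated libraries Gcg was at rank 3, below mt-Cytb as well, or at rank 4, below mt-Nd5 too, in library 5. As a relative change the fall was not extreme, since 246 tested genes fell by more, but in CPM it was the largest fall of any gene (its mean fell by 6804 CPM, whereas the next, mt-Nd1, fell by 675 CPM).

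**Figure D1:**
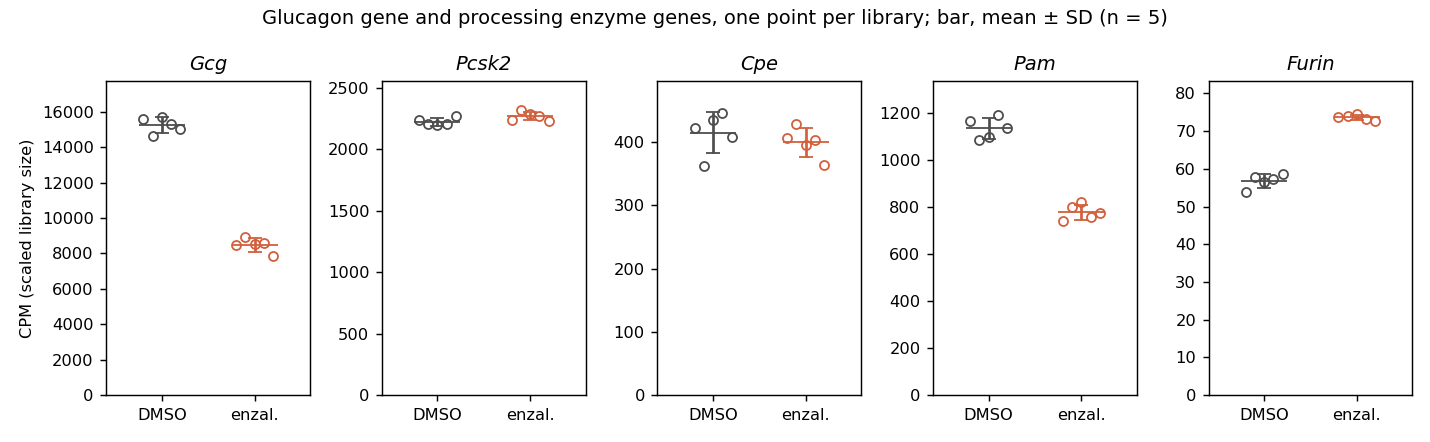
CPM of the 5 genes (vertical axes from 0, 1 scale per gene) in DMSO and enzalutamide libraries, with 1 point per library and bars for the mean ± SD (n = 5). The groups are apart for Gcg, Pam and Furin and overlap for Pcsk2 and Cpe.

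Pcsk2 (ENSMUSG00000027419, plus strand of chromosome 2, 143546156 to 143816285), which encodes the convertase that cuts out glucagon, was among the 21 most counted genes of every library. It was at 2241, 2203, 2200, 2207 and 2272 CPM in the DMSO libraries. In the enzalutamide libraries it was at 2242, 2317, 2288, 2272 and 2232 CPM. The 2 ranges overlapped. The log2 fold change of 0.03 had a 95% interval of -0.01 to 0.07 (edgeR adjusted p = 0.313), which as a fold runs from 0.991 to 1.05. With total-count scaling the difference passed (0.064, adjusted p = 0.0185), still a small rise. A change of the size seen for Gcg or Pam lay outside the interval.

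Cpe (ENSMUSG00000037852, minus strand of chromosome 8, 64592542 to 64693054), the carboxypeptidase gene, also kept overlapping groups. Its values were 422, 363, 435, 446 and 408 CPM in DMSO and 407, 428, 395, 403 and 364 CPM in enzalutamide. It varied more between libraries than the other 4 genes, with a coefficient of variation of 7.83% in DMSO and 5.81% in enzalutamide. The log2 fold change was -0.05 (edgeR adjusted p = 0.439), and its 95% interval, -0.15 to 0.04, leaves room for a fall of up to a fold of 0.9. Without DMSO library 2, the lowest control, the log2 fold change was -0.10 and the adjusted p = 0.0857.

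Pam (ENSMUSG00000026335, minus strand of chromosome 1, 97795114 to 98095646), the gene of the amidating enzyme, was the enzyme gene with the largest change. It was at 1164, 1084, 1095, 1190 and 1134 CPM in the DMSO libraries. It was at 738, 797, 819, 757 and 775 CPM in the enzalutamide libraries, all below every control. The fall was -0.54 on the log2 scale with an SE of 0.0334 (edgeR adjusted p = 1.32e-09), and its rank by count moved from between 39 and 46 to between 69 and 89. The annotation has 5 genes that overlap Pam, among them B230216N24Rik, a processed transcript on the same strand. It had 1110 to 1231 counts in DMSO and 488 to 647 in enzalutamide, a change of -1.0 on the log2 scale with an SE of 0.0694 (edgeR adjusted p = 6.11e-09). Its counts were at most 1.74% of those of Pam in any library. The overlapping genes on the opposite strand had at most 13 counts in a library, and the others on the same strand are not analysed here. Whether reads were shared between these overlapping genes was not tested.

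Furin (ENSMUSG00000030530, minus strand of chromosome 7, 80388585 to 80405436) was the least abundant of the 5 and the gene that rose. It was at 53.7, 57.7, 56.5, 57.4 and 58.5 CPM in DMSO. It was at 73.7, 73.9, 74.7, 73.3 and 72.6 CPM in enzalutamide, all above every control. The coefficient of variation was 3.25% in DMSO and 1.04% in enzalutamide. Counting error at this depth, with counts taken as reads, is not small beside the latter, so its narrowness is not read as a trait of the treated libraries. The rise was 0.38 on the log2 scale with an SE of 0.0353 (edgeR adjusted p = 2.66e-07). Among all tested genes 1531 rose by more. No gene overlaps Gcg or Cpe in the annotation. Pcsk2 and Furin have antisense neighbours whose counts are not analysed here, and the strand setting of the counting is not given in the sources used here.

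Levels were compared between genes as CPM per kilobase of summed exon length. In DMSO they were 10221 ± 295 for Gcg, 281 ± 3.95 for Pcsk2, 159 ± 12.5 for Cpe, 95.3 ± 3.79 for Pam and 6.19 ± 0.201 for Furin (SD, n = 5). In enzalutamide they were 5666 ± 260, 287 ± 4.36, 153 ± 8.90, 65.4 ± 2.69 and 8.02 ± 0.0833 in the same order (SD, n = 5). The groups of neighbouring genes did not overlap in this order. Per kilobase of the longest transcript, however, Pam (276 ± 11 in DMSO) stood above Cpe (196 ± 15.4), and in enzalutamide they were at 189 ± 7.81 and 189 ± 11 (SD, n = 5 each). The order of Pam and Cpe therefore depends on the length used, while Gcg first, Pcsk2 second and Furin last held with both. Per length, Gcg stood 18.9-fold above the 4 enzyme genes together in DMSO and 11-fold in enzalutamide (14.7-fold and 8.93-fold with the longest transcript).

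**Figure D2:**
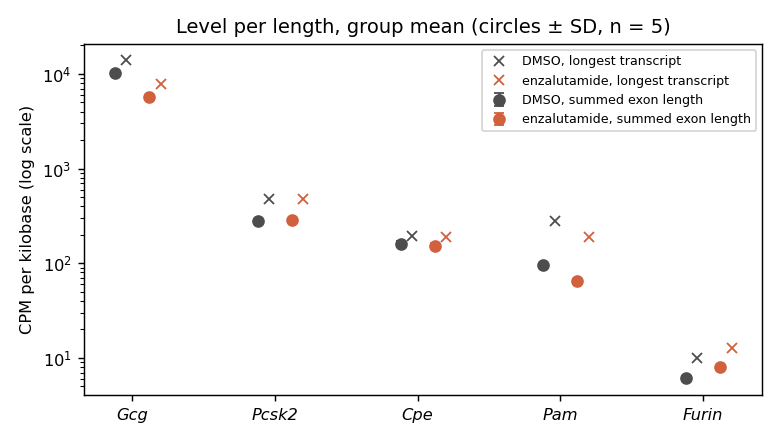
Level of each gene as CPM per kilobase on a log axis, group means for DMSO and enzalutamide (circles with SD over 5 libraries for summed exon length, crosses for the longest transcript). Gcg lies above all 4 enzyme genes with both lengths in both groups.

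The hormone gene was set against each enzyme gene by the ratio of their counts within a library, in which library scaling cancels. In DMSO there were 6.62 to 7.16 counts of Gcg per count of Pcsk2, and in enzalutamide 3.51 to 3.85. For Cpe the ratio went from 34.3 to 40.4 in DMSO to 20.8 to 21.6 in enzalutamide. Against Pam, the enzyme gene that fell with it, the ratio still fell, from 12.9 to 14.4 down to 10.1 to 11.5. Against Furin it fell from 254 to 290 down to 108 to 121. The log2 differences, enzalutamide minus DMSO, were -0.88 for Pcsk2, -0.80 for Cpe, -0.31 for Pam and -1.23 for Furin. For each of the 4 ratios the groups did not overlap and the exact two-sided permutation test gave p = 0.00794, the smallest that 5 against 5 libraries allow (0.00794 also after Benjamini-Hochberg adjustment over the 4 ratios). Gcg counts thus fell relative to those of each of the 4 enzyme genes, Pam included. This is not particular to them, since 98.3% of all tested genes had a log2 fold change at or above that of Gcg. For Pcsk2 and Cpe, which did not pass, the ratio largely restates the fall of Gcg, and for Furin it adds the rise of Furin.

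**Figure D3:**
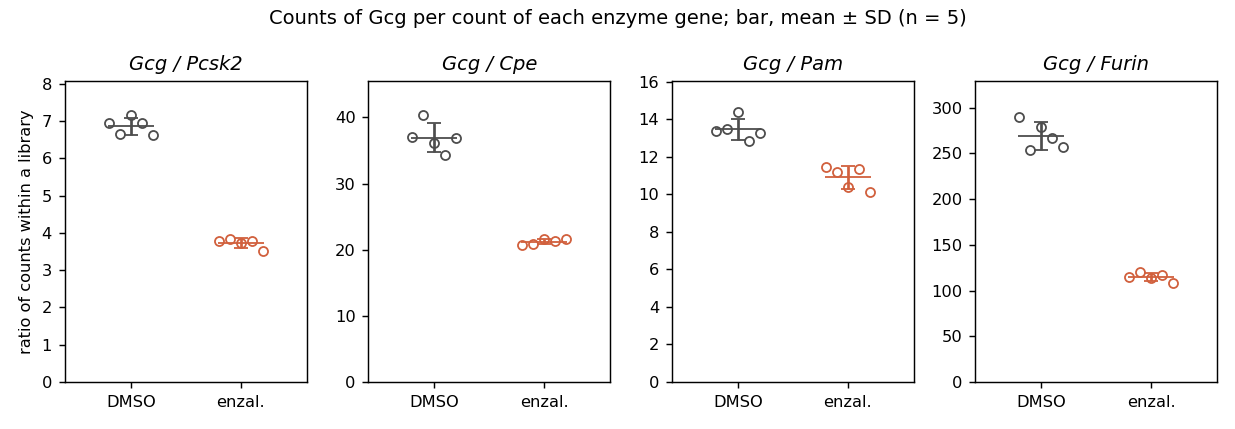
Counts of Gcg per count of Pcsk2, Cpe, Pam and Furin within each library (vertical axes from 0), with points for libraries and bars for the mean ± SD (n = 5). Every enzalutamide library lies below every DMSO library in all 4 panels, with the smallest distance for Pam.

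The enzyme genes also shifted against each other. Counts of Pcsk2 per count of Pam were 1.85 to 2.03 in DMSO and 2.79 to 3.04 in enzalutamide. Counts of Pam per count of Furin were 18.8 to 21.7 in DMSO and 10 to 11 in enzalutamide. Counts of Pcsk2 per count of Cpe were 4.94 to 6.07 in DMSO and 5.41 to 6.13 in enzalutamide, ranges that overlapped.

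Gcg and Pam fell together, and the 250 bases before their start sites are printed to show how far these regions differ (RefSeq, GRCm38.p6, minus strand, 5′ to 3′; chr2:62483654-62483903 for Gcg and, for the first of 2 annotated Pam starts, chr1:98095647-98095896). Capitals mark the TATA box letters TATAAA, searched on both strands.
Gcg: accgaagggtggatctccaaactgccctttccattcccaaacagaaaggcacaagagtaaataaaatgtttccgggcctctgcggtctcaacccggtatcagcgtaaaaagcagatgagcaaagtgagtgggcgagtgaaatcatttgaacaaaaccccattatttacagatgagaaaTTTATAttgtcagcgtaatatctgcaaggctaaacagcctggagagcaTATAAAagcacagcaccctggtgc
Pam: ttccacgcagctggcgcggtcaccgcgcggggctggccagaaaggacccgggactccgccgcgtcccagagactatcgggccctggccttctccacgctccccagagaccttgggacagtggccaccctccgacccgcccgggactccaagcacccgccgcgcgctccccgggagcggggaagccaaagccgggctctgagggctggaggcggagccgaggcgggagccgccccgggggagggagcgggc
The Gcg window held a match that began at position -24 from the start and another on the opposite strand at -72, whereas neither Pam window held one. Of the other windows searched, 1 of 2 for Furin held a match, at -23, and that of Pcsk2 held none; Cpe was not searched. TATAAA occurred in 12.4% of 32851 such windows. The GC content was 44.8% for Gcg and 75.6% for Pam, against a median of 52.4% over all windows. The cAMP response element TGACGTCA (1.55% of windows), the AP-1 site TGANTCA (6.75%), the C/EBP-ATF element TGATGNAA (3.45%) and the palindromic androgen response element, AGAACA and TGTTCT with 3 bases between them (0.00913%), each searched on both strands, had 0 matches in the windows of Gcg, Pcsk2, Pam and Furin. The shorter cAMP response motif TGACG, which is part of the full element, occurred in 17.8% of windows, among them that of Pcsk2 (at -34) and 1 of 2 for Furin (at -126), and had 0 matches for Gcg and Pam. A count of 0 says only that these letters are absent from these windows.

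Other genes related to Gcg and its processing were described from 9 lists of 101 symbols, of which 100 were in the table and 70 had enough counts to test. Besides processing genes, the lists held other prohormones and granins, receptors for proglucagon peptides and factors acting at the glucagon promoter. Of the 70, 27 fell and 6 rose at an adjusted p under 0.05 in the same edgeR fit (47.1%, against 37.8% of all tested genes), with a median log2 fold change of -0.09 against 0.01 over all tested genes. Of the 27 falls, 13 were in the list for entry into the endoplasmic reticulum and signal peptide removal.

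Among the other proprotein convertases Pcsk1, the convertase that makes glucagon-like peptides in L cells, had at most 8 counts in any library, and Pcsk5 and Pcsk6 were likewise too low to test. Pcsk7, a convertase related to furin, fell (-0.19, adjusted p = 0.00575), as did Mbtps1, the site-1 protease (-0.10, adjusted p = 0.00823, and 0.0802 with total-count scaling). Pcsk4 did not pass, with 1.56 ± 0.379 CPM in the controls and 2.20 ± 0.306 CPM after treatment (adjusted p = 0.054). Of the 2 helper genes, Pcsk1n, which encodes proSAAS, an inhibitor of the Pcsk1 convertase, rose by 0.23 (SE 0.0416), from 256 ± 8.84 to 301 ± 20.4 CPM. Scg5, which encodes 7B2, the protein needed for activation of the Pcsk2 convertase, was at 145 ± 4.91 and 154 ± 11.7 CPM (0.09, adjusted p = 0.141).

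Of 5 tested genes in the carboxypeptidase E family, Cpn1, a plasma carboxypeptidase, fell (-0.24, adjusted p = 0.0023) and 4 did not pass. Thus 20% were called, where 37.8% of all tested genes were (18.8% lower and 19% higher in enzalutamide). Among the 4 that did not pass was Cpd, a carboxypeptidase of the trans-Golgi network, at 96.1 ± 3.15 and 89.4 ± 5.03 CPM (adjusted p = 0.0529). Of 5 genes for the copper and ascorbate supply that amidation needs, 1 fell, which is again 20%. It was Cyb561, which carries electrons into granules to restore ascorbate, and it went from 63.4 ± 2.88 to 53.3 ± 1.37 CPM (-0.25, SE 0.0405). The copper pump gene Atp7a was at 10.7 ± 1.08 and 10.3 ± 1.5 CPM (adjusted p = 0.687).

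The 22 genes for entry into the endoplasmic reticulum and signal peptide removal were all tested, and 13 fell and 9 did not pass, where 18.8% of all tested genes fell. Their median log2 fold change was -0.14. The translocon subunit gene Sec61b fell most clearly (-0.45, SE 0.0502, adjusted p = 1.64e-06), from 50.5 ± 1.45 to 36.8 ± 2.64 CPM. Ssr1 (-0.23) and Ssr3 (-0.18), which encode subunits of the translocon-associated protein complex, and Srp68 of the signal recognition particle (-0.20) fell as well. Signal peptidase was represented among the falls by Sec11a, Spcs1 and Spcs2. Srp54a, Srp54b and Srp54c, which fell too, are near-identical copies and their separate counts are uncertain.

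Of 7 tested genes for peptide trimming and inactivation, Ctsl, the cathepsin L gene, rose (0.31, SE 0.0372, adjusted p = 4.24e-06) and 3 fell (57.1% called, against 37.8% of all tested genes). The 3 were Mme, the neprilysin gene (-0.20), Qpctl, a glutaminyl cyclase of the Golgi (-0.28), and Ide, the insulin-degrading enzyme (-0.09, adjusted p = 0.0408). The call for Ide was lost in 11 of 21 alternatives, with an adjusted p of up to 0.192. They included total-count scaling and the omission of any 1 of DMSO libraries 2 to 5 and enzalutamide libraries 1 to 4 (0.0561 to 0.117). Rnpep and Nrd1 encode enzymes that act at the internal Arg-Arg pair of glucagon printed above. Their log2 fold changes were -0.01 (edgeR adjusted p = 0.916) and -0.07 (edgeR adjusted p = 0.0897).

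Of 10 tested genes for other prohormones and granins 3 fell and 2 rose, where 18.8% of all tested genes fell and 19% rose. Vgf, a neuropeptide precursor, fell from 96.4 ± 2.84 to 36.7 ± 2.87 CPM (-1.39, SE 0.0488, adjusted p = 8.34e-13). The granin genes Scg3 (-0.22) and Chgb (-0.12) fell, while Chga (0.20) and Scg2 (0.16), the chromogranin A and secretogranin II genes, rose. Among receptors for proglucagon peptides, Glp1r and Glp2r had 0 counts in every library and Gcgr, the glucagon receptor, at most 6. Gipr, the receptor of the related hormone GIP, was at 0.227 ± 0.143 and 0.17 ± 0.208 CPM (adjusted p = 0.741). Ramp2, which encodes a partner of the glucagon receptor, was at 5.60 ± 1.02 and 4.55 ± 1.90 CPM (adjusted p = 0.331).

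Of 13 tested genes for factors acting at the glucagon promoter 4 fell and 1 rose (38.5% called, near the 37.8% of all tested genes), with a median log2 fold change of -0.07. Those that fell included Ctnnb1, the β-catenin gene (-0.28), and Creb1, the cAMP-responsive factor (-0.16), and Isl1, a LIM homeobox factor, rose slightly (0.08, adjusted p = 0.026). Pax6, a paired-box factor that binds the Gcg promoter, was at 111 ± 2.56 and 114 ± 1.46 CPM (0.04, adjusted p = 0.346).

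**Figure D4:**
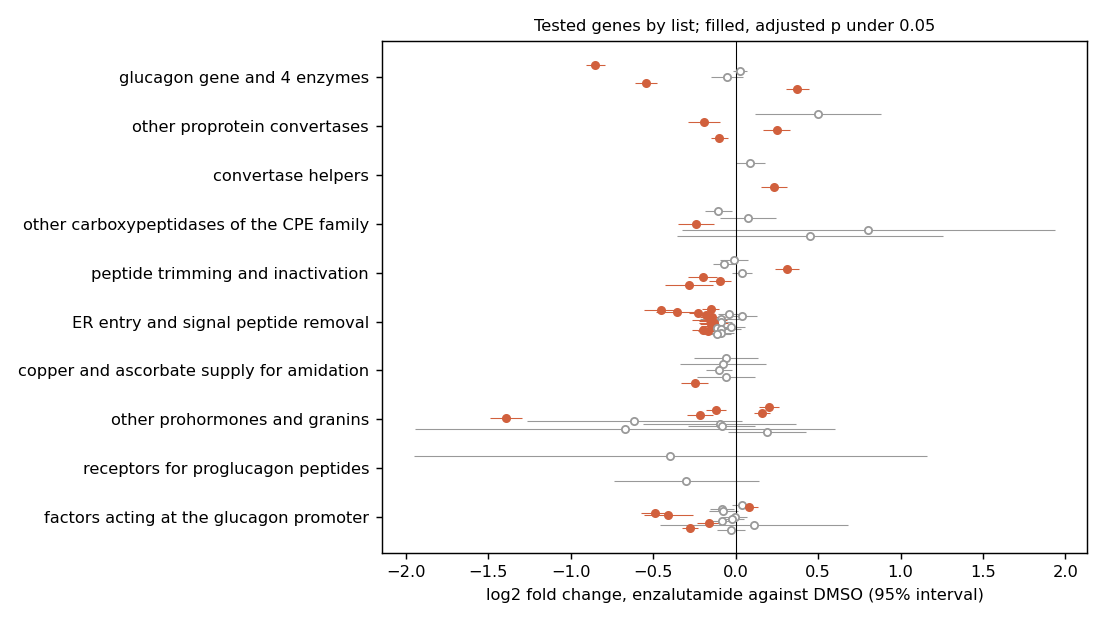
Log2 fold change of enzalutamide against DMSO with its 95% interval for each tested gene of the 5 and of the 9 lists, filled where the adjusted p was under 0.05. The point of Vgf lies farthest to the left, and the genes of entry into the endoplasmic reticulum that passed all lie below 0.

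Profiles over the 10 libraries were set against that of Gcg. The distance was the root mean square difference of log2 CPM centred on each gene's own mean. Genes whose symbol is a Gm number, a Rik clone or an Ensembl ID were left out. The 5 nearest genes were taken from 9690 tested genes with a mean of at least 5 CPM. They were Clu (0.0662), which encodes the chaperone clusterin, Neat1 (0.0788), the nuclear RNA of paraspeckles, Nefm (0.0789), a neurofilament subunit gene, Txnip (0.0798), the thioredoxin-interacting protein gene, and Tubb2a (0.0889), a β-tubulin gene. Nefm had a log2 fold change of -0.95 and Clu of -0.88, each slightly more than that of Gcg, while those of Neat1 (-0.79), Txnip (-0.73) and Tubb2a (-0.73) were slightly less. Tubb2a has close paralogs and its count is less certain. The measure includes the difference between the groups, which all 5 share with Gcg, and is a description of these libraries.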

How the data were processed

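The authors deposited whole-number counts per Ensembl gene, and a second table of the same counts as a signal divided by 1 size factor per library. HISAT2, StringTie, DESeq2 and mm10 are named without versions or roles, per the submitters' processing notes. Whether the counts are direct read counts or estimates, and how strand and multi-mapping reads were handled, is not given in the sources used here. All 20039 symbols matched between the tables gave the count back from the signal within 0.01. The work used edgeR 4.0.16 and limma 3.58.1 under R 4.3.3. After filterByExpr, 14156 genes were tested with trimmed mean of M values scaling, without covariates, by edgeR's quasi-likelihood test at a Benjamini-Hochberg adjusted p under 0.05. The SE of a log2 fold change is its size over the root of the F statistic, 95% intervals use a normal quantile, and each ± is an SD over 5 libraries. The members, gene lists and tests were chosen with earlier results of these data known. Named list genes were up to 4 passing members per list with the lowest adjusted p, besides helper and receptor genes and the 5 profiles nearest to Gcg; Pcsk1, Pcsk4, Cpd, Atp7a, Chgb, Rnpep, Nrd1, Isl1, Pax6, B230216N24Rik, the mitochondrial genes and the signal peptidase and Srp54 genes were named after their values were seen. Some genes that this rule names are not reported here. With counts taken as reads, replicate pairs differed beyond sampling noise, so all 10 libraries were kept. Positions and exon lengths came from GENCODE M21 on GRCm38/mm10. The fit was tested on simulated counts. Alternatives were other scalings, filters, limma-voom, DESeq2 1.42.0, limma-trend (log2 of the deposited signal with a pseudocount of 1 or 8), a replicate block and leaving out each library. Removal of GC and length trends was added after the data were seen.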

Additional observations from a re-analysis of the deposited data

Results flagged for a closer look

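Of 76 groups of 5 values checked for a library apart from the rest, 1 was marked, fewer than the 1 in 20 that chance gives. Tubb2a in DMSO library 1, at 63.1 CPM, was the lowest control, and its gap to the nearest other control (67.4 CPM) was 0.781 of the group's range, above the critical value of 0.71.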

How the results depend on the processing

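Over 21 alternatives each, the log2 fold change was -0.87 to -0.82 for Gcg, -0.56 to -0.51 for Pam and 0.29 to 0.41 for Furin, and each passed in all of them. Cpe passed in none (-0.10 to -0.02, adjusted p of at least 0.0857). Pcsk2 passed with total-count scaling (0.0639, adjusted p = 0.0185) and in no other (0.201 to 0.496). The number of genes called was 4884 to 5754. Among the list genes 5 to 8 rose and 23 to 32 fell. For the 22 list genes taken by the naming rule, 450 of 462 recomputed values kept direction and call, 12 lost the call (those of Ide and 1 of Mbtps1) and 0 reversed. With the replicate number as a block the log2 differences of the ratios of Gcg to Pcsk2 (-0.88), Cpe (-0.80), Pam (-0.31) and Furin (-1.23) had p = 0.0625 in the exact sign-flip test, the smallest that 5 pairs allow, so this test could not pass. The block in edgeR left 5296 genes called and changed the call of none of the 5 genes. Deviations of same-numbered libraries correlated between -0.00849 and 0.0451, so the numbers were not taken as pairs, and not every library correlated best with its own number. Depth limits Furin most, at 3436 to 5098 counts in a library, where counting error, with counts taken as reads, is not small beside the spread between libraries.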
